A study of Homo sapiens with 2 samples.

Results

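The genes described here are the enzymes that build haem and the enzyme that breaks it down, 9 genes of the 18377 measured: ALAS1, ALAS2, ALAD, UROS, UROD, CPOX, PPOX, FECH and HMOX1. They were listed by name as a pathway, with earlier results of these data known, and each was read by 1 probe that carries only that gene's symbol. Both samples are K562, an established human leukaemia line with erythroid features whose growth is driven by the BCR-ABL1 kinase, and both received imatinib, which inhibits that kinase, at 2 µM for 6 h. They are 1 culture grown with erythropoietin (EPO), the hormone of red cell formation, and 1 culture whose label names no EPO and which the growth protocol puts as grown without it. Total RNA of each went onto 1 whole-transcript Gene 1.0 ST array. K562 is a single cell line, and cells without imatinib were not analysed here.

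Haem is made in 8 steps that begin and end in the mitochondrion. Aminolevulinate synthase joins glycine to succinyl-CoA in the mitochondrion, the next enzymes assemble and trim the porphyrin ring in the cytosol, and the last ones oxidise it and insert iron back in the mitochondrion. The synthase has an isozyme found in most cells, ALAS1, and an erythroid isozyme, ALAS2. In maturing red cells most haem goes into haemoglobin, and the erythroid factor GATA1 is known to act on genes of the pathway. HMOX1, haem oxygenase 1, opens the ring and is known to be induced by haem and by oxidative stress through NRF2, with BACH1 as its repressor.

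The sequences below are the 250 bases before the RefSeq start (GRCh38.p14) of 4 members: the erythroid synthase ALAS2, the pair with the largest differences between the arrays, CPOX and FECH, and ALAD, the enzyme with the smallest. They are shown because a GATA site is the textbook element of erythroid haem genes. Capitals mark the GATA motif, searched on both strands as the letters GATA with A or T before them and A or G after them. The windows lie at chrX:55030978-55031227 (minus strand) for ALAS2, chr3:98593612-98593861 (minus strand) for CPOX, chr18:57586703-57586952 (minus strand) for FECH and chr9:113401285-113401534 (minus strand) for the upstream start of ALAD.
ALAS2: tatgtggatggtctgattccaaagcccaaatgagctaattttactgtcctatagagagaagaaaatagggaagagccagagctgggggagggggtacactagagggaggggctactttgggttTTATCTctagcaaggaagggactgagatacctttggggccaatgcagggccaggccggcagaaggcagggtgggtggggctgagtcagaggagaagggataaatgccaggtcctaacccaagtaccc
CPOX: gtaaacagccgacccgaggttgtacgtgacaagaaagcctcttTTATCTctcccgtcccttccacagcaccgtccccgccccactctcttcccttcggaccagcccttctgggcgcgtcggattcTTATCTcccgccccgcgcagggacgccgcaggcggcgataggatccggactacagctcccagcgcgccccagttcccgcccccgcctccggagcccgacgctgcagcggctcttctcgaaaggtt
FECH: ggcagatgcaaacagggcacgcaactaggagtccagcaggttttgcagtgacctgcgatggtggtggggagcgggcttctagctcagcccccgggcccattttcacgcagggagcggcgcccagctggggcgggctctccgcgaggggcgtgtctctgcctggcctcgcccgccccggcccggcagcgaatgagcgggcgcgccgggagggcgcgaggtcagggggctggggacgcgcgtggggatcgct
ALAD: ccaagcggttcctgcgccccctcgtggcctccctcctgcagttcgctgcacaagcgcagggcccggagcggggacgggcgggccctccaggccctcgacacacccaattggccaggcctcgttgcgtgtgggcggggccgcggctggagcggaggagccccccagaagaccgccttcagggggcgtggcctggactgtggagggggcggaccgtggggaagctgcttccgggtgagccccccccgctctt

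CPOX held 2 GATA matches, at 207 to 202 and 125 to 120 bases before the start, and ALAS2 held 1, at 127 to 122. FECH held 0, and so did the ALAD window printed. A second ALAD start downstream had 1 match, as did the downstream one of the starts of PPOX, and the windows of ALAS1 and UROD had 0. In all, 4 of the 9 windows of the 7 members in the table had a match, against 22.3% of its 35116 windows. The ALAS2 window also held TGAGTCA, a match to the AP-1 and NF-E2 motif TGANTCA, 47 to 41 bases before the start. That match overlaps one to the antioxidant response motif TGACNNNGC on the other strand. The first of these motifs occurs in 6.57% of windows and the second in 10.9%. FECH had a match to TGACNNNGC as well, 38 to 30 bases before its start. The CACCC-type motif CCNCNCCC, which also matches GC-rich Sp1-type sequence, was found in the windows of ALAS1, ALAS2, ALAD, CPOX, PPOX and FECH, and in 53.4% of all windows. These are matches of letters, and no binding was measured.

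The ALAS2 messenger also carries an iron-responsive element near its 5′ end, the hairpin through which iron-regulatory proteins hold back its translation when iron is scarce. It was found on the transcribed strand as a C, 5 paired bases, the loop CAGTGN and the 5 matching bases (G-U pairs allowed). It lies at chrX:55030944-55030966 (minus strand), from base 12 after the start, with the loop in capitals.
ALAS2 element: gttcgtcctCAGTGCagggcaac

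Of the 35116 windows, 8 (0.0228%) had such an element in the 50 bases after the start, and of the 7 members with a window ALAS2 was the 1 that did. An array reads messenger amount, so control of translation through this element would not show in its values.

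The deposited values are taken here to be log2 numbers. From their spread about 0 they appear to have been centred probe by probe on an unstated baseline. The base of the logarithm is not stated either, and folds below take it to be 2. A value near 0 means near that baseline, not a low level, so the level of one gene cannot be set against another's, and K562 identity could not be checked from marker levels. A single array stands for each culture, so no error, test or p-value can be given, and precision is limited by that number. A gene counted as higher or lower when the difference, with EPO minus without EPO, was at least 1 on the log2 scale (2-fold).

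In the deposited values most haem synthesis genes stood higher with EPO than without it, and the largest differences were at late mitochondrial steps. CPOX and FECH were at least 2-fold higher, 5 of the other enzymes stood between 0.37 and 0.84 higher, and ALAD and HMOX1 lay slightly below 0. Thus 2 of the 9 members were called higher and 0 lower, against 6.19% and 0.898% of all 18377 genes. The median difference of the 8 enzymes was 0.79 and their mean 0.71, beside a median of -0.047 and a mean of 0.078 over all genes. Of the 8 enzymes, 7 lay above 0, where 45.4% of all genes did.

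That shift has to be read beside the behaviour of other genes. A class of 192 genes of cellular machinery, defined by symbol (proteasome, mitochondrial ribosome, complex I, SF3 splicing factors, RNA polymerase II and nucleoporins), had a median difference of 0.50, with 33 (17.2%) called higher and 0 lower. A class of 460 genes of families silent in most tissues (receptors for smell and taste, keratin-associated proteins, beta-defensins and the like) had a median of -0.32. Of the 8 enzymes, 5 stood above the machinery median, as did 21.3% of all genes. With that median subtracted, CPOX stood at 0.79 and FECH at 0.65, so neither was called, against 0.604% of all genes called higher on that scale, and the median of the enzymes was 0.29. Of 11 markers of granulocytes and monocytes, lymphocytes and stroma, 10 were measured and 9 lay below 0, with a median difference of -0.35, and the monocyte and granulocyte gene LYZ, at 1.05, was the 1 called. Of 5 genes chosen as K562 markers 2 were measured, GATA1 at 0.25 and HBZ at -0.040. The part of these shifts in the result was not tested.

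**Figure D1:**
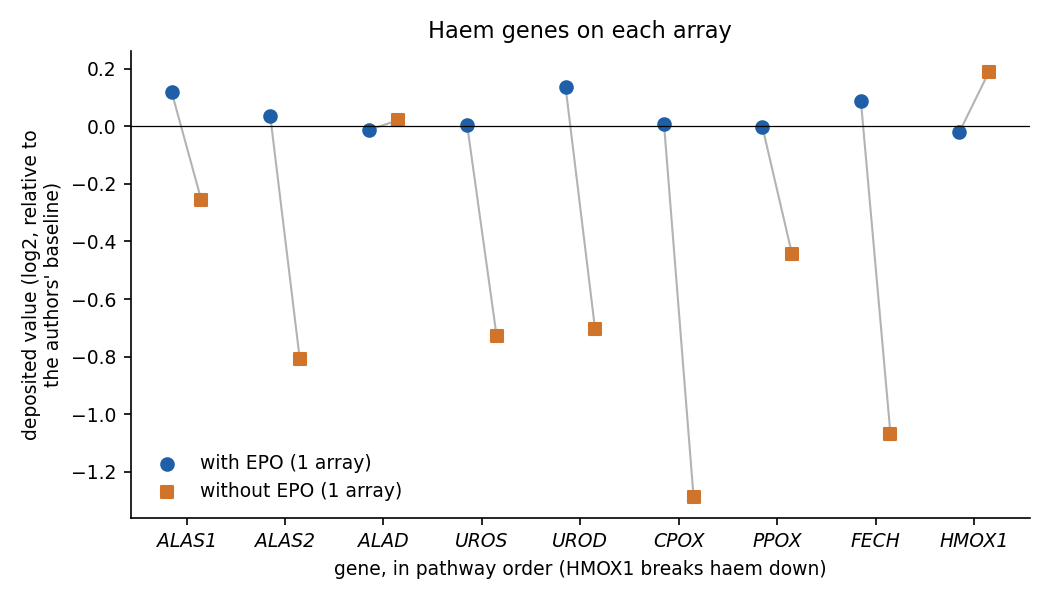
Deposited value (log2, relative to the authors' baseline) of each haem gene, in pathway order, on the array with EPO (circles) and the array without EPO (squares), joined by a line. The circles lie between -0.021 and 0.14, while the squares run down to -1.29.

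Relative to the deposited baseline, the members deviated more on the array without EPO. With EPO the 9 members lay between -0.021 and 0.14, close to the baseline, and 6 of the 8 enzymes lay above it. Without EPO the members ran from -1.29 to 0.19, and 7 of the 8 enzymes lay below the baseline. In 9 of 9 members the value without EPO was larger in size than the value with EPO, as it was in 82.6% of all genes. Over all probes the standard deviation was 0.134 with EPO and 0.431 without EPO, so the whole array without EPO deviated more. Over all genes the values of the arrays ran opposite to each other, with a correlation of -0.69. When both arrays were scaled to one standard deviation, CPOX stood at 0.86 and FECH at 0.88, and 0 members were called higher, against 4.02% of all genes. Which culture changed cannot be told from values centred on an unknown baseline.

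**Figure D2:**
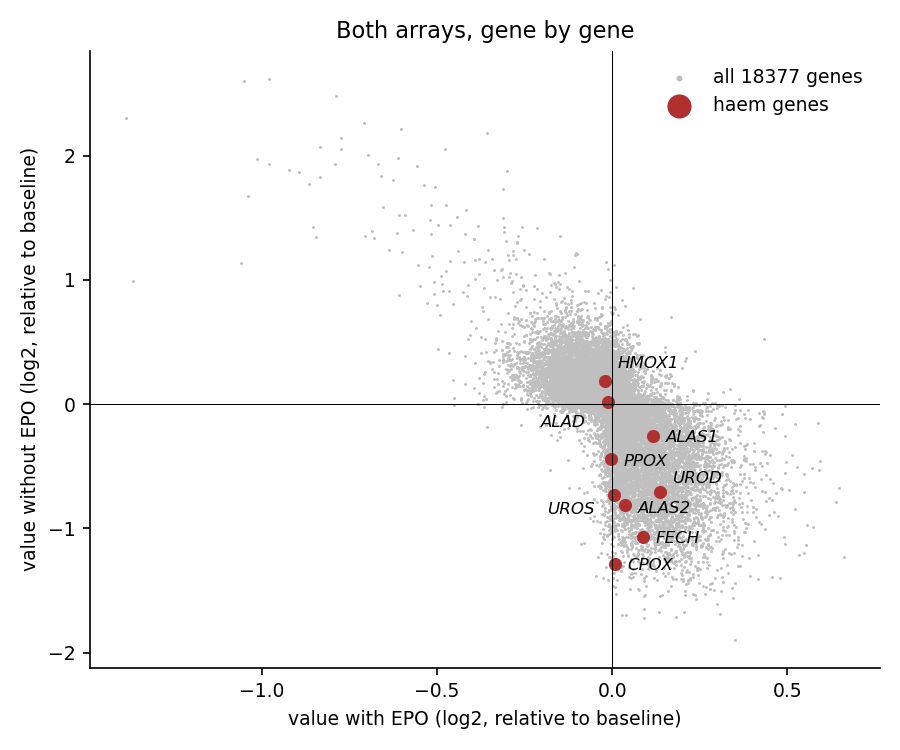
Value without EPO against value with EPO (both log2, relative to the authors' baseline) for all 18377 genes (grey) and the 9 haem genes (red, named). The enzymes other than ALAD lie below the horizontal line through 0 and close to the vertical one, with CPOX lowest at -1.29, and HMOX1 lies above the horizontal line at 0.19.

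The synthase isozymes open the pathway and set its pace. ALAS1 (probe 8080184) had a value of 0.12 with EPO and -0.26 without EPO, a difference of 0.37 (1.30-fold). ALAS2 (probe 8173135), the erythroid isozyme, had 0.036 with EPO and -0.81 without EPO, a difference of 0.84 (1.79-fold). Neither reached 2-fold, and the difference was 0.47 larger for ALAS2 than for ALAS1 (0.19 with both arrays scaled to one standard deviation). ALAS2 lay above 90.2% of all genes and 72.4% of the machinery genes, and ALAS1 above 73.8% and 39.6%. With the machinery median subtracted ALAS1 turned to -0.13.

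The cytosolic steps did not move alike. ALAD (probe 8163509), which condenses aminolevulinate into porphobilinogen, had -0.014 with EPO and 0.021 without EPO, a difference of -0.035 that turned to 0.012 relative to the all-gene median and to 0.29 relative to the silent median. It lay near the middle of all genes, above 51.2% of them. UROS (probe 7936937), which closes the ring into uroporphyrinogen III, had 0.0045 with EPO and -0.73 without EPO, a difference of 0.73 (1.66-fold). UROD (probe 7901073), which trims that ring to coproporphyrinogen, had 0.14 with EPO and -0.71 without EPO, a difference of 0.84 (1.79-fold). UROS and UROD thus stood within 0.11 of each other (0.26 with both arrays scaled to one standard deviation). UROS stood 0.77 above ALAD (0.53 with that scaling).

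The last steps, back in the mitochondrion, held both the largest difference and one of the smaller ones. CPOX (probe 8089072), which oxidises coproporphyrinogen, had 0.0071 with EPO and -1.29 without EPO, a difference of 1.29 (2.45-fold). In the deposited scaling it was the highest member (with both arrays scaled to one standard deviation FECH, at 0.88, stood above CPOX, at 0.86), and 350 of the 18377 genes stood higher. PPOX (probe 7906688), the next oxidase, had -0.0036 with EPO and -0.44 without EPO, a difference of 0.44 (1.36-fold), which turned to -0.060 with the machinery median subtracted. FECH (probe 8023466), ferrochelatase, which inserts iron to complete haem, had 0.087 with EPO and -1.07 without EPO, a difference of 1.15 (2.23-fold), with 617 genes higher. The difference therefore stepped down by 0.85 between CPOX and PPOX and up by 0.71 between PPOX and FECH. With both arrays scaled to one standard deviation these steps were 0.57 and 0.60. CPOX and FECH lay above 94.8% and 92.2% of the machinery genes. The 5 mitochondrial enzymes, both synthases included, had a median of 0.84 with 2 called higher, and the 3 cytosolic ones had a median of 0.73 with 0 called.

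**Figure D3:**
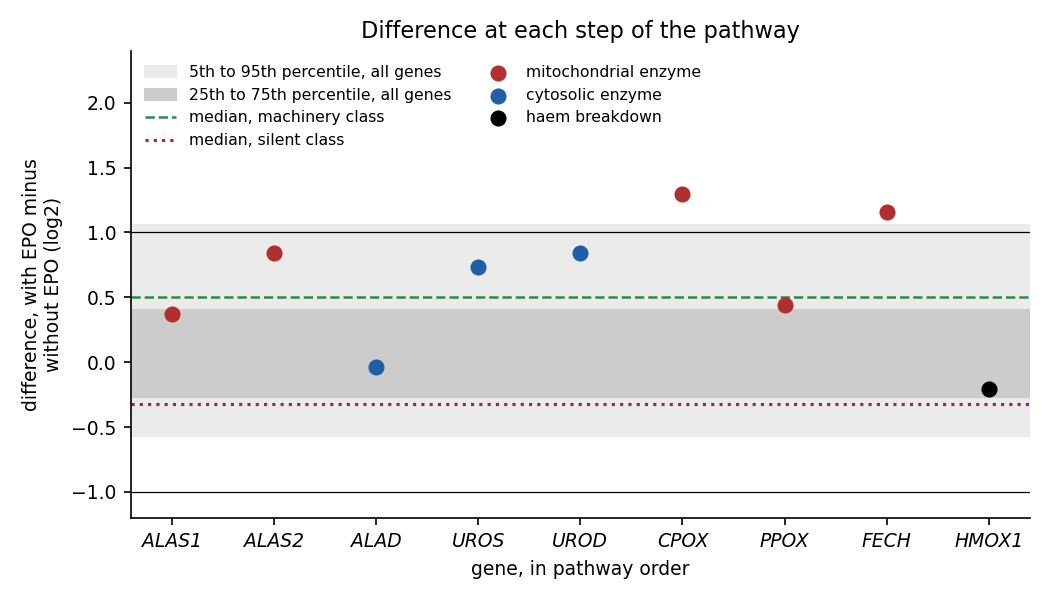
Difference between the arrays (log2, with EPO minus without EPO) for each gene in pathway order, coloured by where the enzyme works, with the central ranges of all genes shaded and the class medians as dashed and dotted lines. CPOX at 1.29 and FECH at 1.15 lie above the line at 1. ALAS1, ALAD and HMOX1 lie inside the middle range of all genes.

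HMOX1 (probe 8072678), which degrades haem, lay slightly below 0, unlike most of the synthesis enzymes. It had -0.021 with EPO and 0.19 without EPO, a difference of -0.21 (1.16-fold lower with EPO, within 2-fold). It stood 1.36 below FECH (1.05 with both arrays scaled to one standard deviation). It lay above 31.0% of all genes and above 66.1% of the silent class. The difference of -0.21 lies between the 25th and 75th percentiles of all genes (-0.26 and 0.40). It turned to 0.12 with the silent median subtracted. Its constitutive relative HMOX2 stood at 0.29, and BLVRA, which reduces its product biliverdin to bilirubin, at 0.29. BLVRB, a reductase of other biliverdin isomers, stood at 0.34.

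Regulators of HMOX1 and other NRF2 targets mostly stood above 0 in the deposited values. NFE2L2, which encodes NRF2, had -0.036 with EPO and -1.04 without EPO, a difference of 1.00, just past 2-fold. KEAP1, the adaptor that marks NRF2 for degradation, stood at 0.62, the repressor BACH1 at 0.37, and the small MAF partners MAFG and MAFF at 0.68 and -0.11. Of 10 measured NRF2 targets other than HMOX1, 4 were called higher and 0 lower, against 6.19% and 17.2% called higher among all genes and machinery genes, with a median of 0.55 that was 0.052 with the machinery median subtracted. GCLM and GCLC, the subunits of the enzyme that limits glutathione synthesis, stood at 1.57 (2.97-fold) and 1.00, malic enzyme ME1 at 1.09 and the peroxidase PRDX1 at 1.03. OSGIN1 at -0.25, NQO1 at -0.065 and FTL at -0.063 lay on the same side as HMOX1. The other measured regulators included ACO1, whose protein without its iron-sulphur cluster is an iron-regulatory protein, at 1.10, GATA1 at 0.25 and the haem-sensing kinase EIF2AK1 at 0.57. PPARGC1A and NR1D1, which act on ALAS1, stood at -0.28 and -0.24, and NRF1 at -0.0051. In all, 7 of 11 regulators lay above 0 and 4 below, where 45.4% of all genes and 82.8% of machinery genes lay above 0. Of the 11, 2 (18.2%) were called higher and 0 lower, near the 17.2% of machinery genes called higher, against 6.19% of all genes. Their median of 0.37 turned to -0.13 with the machinery median subtracted.

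Genes of precursor supply and mitochondrial transport, not all of which serve the first step, lay above 0 in 14 of 14 measured cases. So did 45.4% of all genes and 82.8% of machinery genes. Their median was 0.80, or 0.30 with the machinery median subtracted, and 3 were called higher, against 6.19% and 17.2%. The subunits of succinyl-CoA ligase, an enzyme that can furnish succinyl-CoA, stood at 1.10 (SUCLA2), 0.85 (SUCLG1) and 0.94 (SUCLG2). SHMT2, which makes glycine in the mitochondrion, stood at 0.95, and SLC25A38, the carrier needed for glycine import into it, at 0.52. CLPX, a mitochondrial unfoldase known to activate aminolevulinate synthase, had 0.062 with EPO and -1.21 without EPO, a difference of 1.27 (2.42-fold). Of the transporters, ABCB10 stood at 1.37, ABCB6 at 0.94, SLC25A39 at 0.75 and TMEM14C at 0.46. SLC25A37, the iron carrier mitoferrin 1, stood at 0.47 and SLC25A28 at 0.24. The rest of the list stood at 0.48 (TSPO) and 0.23 (FAM210B).

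Genes of iron uptake and handling, which supply the last step, had a median of 0.94, or 0.44 with the machinery median subtracted. Of 10, 5 were called higher and 0 lower, against 6.19% of all genes and 17.2% of machinery genes called higher. The list also holds the exporter SLC40A1 and NCOA4, which are not uptake genes, and both are among the 5. TFRC, the transferrin receptor, had 0.069 with EPO and -0.95 without EPO, a difference of 1.02, and NCOA4, which sends ferritin for breakdown, also stood at 1.02. CYBRD1 at 1.65, SLC39A8 at 1.33 and SLC40A1 at 1.09 were the others called. Iron-sulphur cluster assembly, which shares mitochondrial iron with FECH, had a lower median of 0.26, which turned to -0.24 with the machinery median subtracted, with 0 of 13 called. Its highest members were ISCA1 at 0.85, LYRM4 at 0.80 and HSPA9 at 0.80, while GLRX5, known from human sideroblastic anaemia, stood at 0.36.

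Genes that use, carry or export haem stood mostly above 0. The median of 10 genes for haem use was 0.49 (-0.0078 with the machinery median subtracted). Of the 10, 2 were called higher, a share near the 17.2% of machinery genes, against 6.19% of all genes. These were CYB5A, cytochrome b5, at 1.45 (2.73-fold) and COX15, which makes haem a, at 1.07, and the haem enzyme catalase (CAT) stood at 0.64. COX10, which acts before COX15, stood at 0.18. Of 10 genes for breakdown, export and binding, 1 (10%) was called higher, against 6.19% of all genes and 17.2% of machinery genes. Their median was 0.50, or 0.00054 with the machinery median subtracted. The gene called was HEBP1, a haem-binding protein, with 0.37 with EPO and -0.79 without EPO, a difference of 1.16. The haem exporter FLVCR1 stood at 0.93 and PGRMC2, a haem chaperone, at 0.70, and FLVCR2 lay below 0 at -0.46. The globins, which take up most haem in red cells, and their chaperone AHSP had a median of -0.040 over the 7 of 11 listed genes that were measured (not the alpha globins HBA1 and HBA2 or the gamma globins HBG1 and HBG2), which turned to 0.0067 relative to the all-gene median and to 0.28 relative to the silent median. Of these, 0 were called. AHSP stood at 0.63, HBQ1 at -0.43 and HBM at -0.29.

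**Figure D4:**
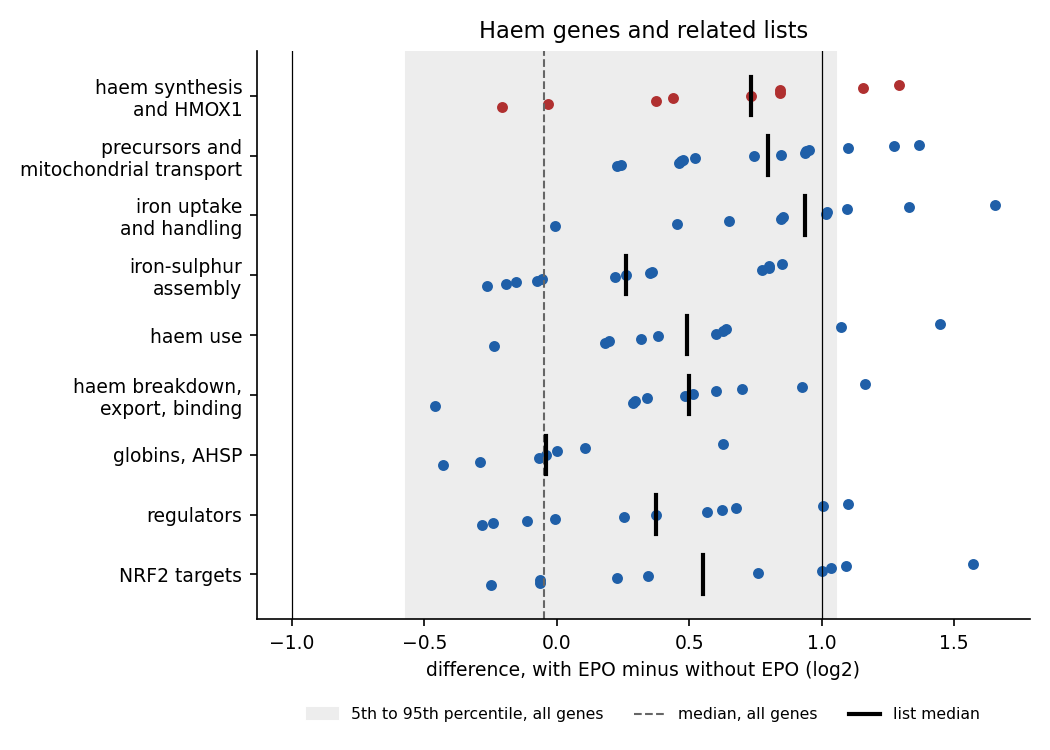
Difference between the arrays (log2, with EPO minus without EPO) for the haem genes (top row, red) and each measured gene of 8 related lists, with list medians as black bars, the range from the 5th to the 95th percentile of all genes shaded and 2-fold marked by lines at -1 and 1. The list of iron uptake and handling has the highest median (0.94) and the globin list the lowest (-0.040).

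The genes with the nearest pair of values to CPOX were ZCRB1, TSPAN7 and SERPINB1, at Euclidean distances of 0.017, 0.021 and 0.026 over the 2 arrays. For HMOX1 they were DGCR6L, CAV1 and SLC5A1, at 0.00079 to 0.0022. Within a distance of 0.05 there were 10 genes around CPOX and 1101 around HMOX1, so a likeness over 2 arrays picks out little, least of all for HMOX1.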

How the data were processed

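Gene expression was measured on 1 whole-transcript array per culture, 2 arrays in all, and 1 array per group allows no test. The deposited values were taken to be log2 numbers, since their range is that of logarithms but does not show the base. Per the labels' protocols the arrays are Gene 1.0 ST. The background correction, summarisation, normalization, software and logarithm base are not stated in those labels. That the authors centred the probes is read from the values and stated nowhere: both columns lie about 0, with medians of -0.0089 with EPO and 0.052 without EPO, and in 631 of 28869 probes (2.19%), none of them a member's, the arrays were equal and opposite within 1e-05.

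Of the probes, 19310 carried 1 gene symbol in the platform annotation, 1752 several and 7807 were not listed. By Entrez ID 19279 of the 19310 took current RefSeq symbols. Probes of a gene were averaged, giving 18377 genes. 1 probe whose symbol is an old alias of a member belongs to another gene by Entrez ID and was left out. Promoter sequences are from RefSeq (GRCh38.p14), with 7 of 9 members matched.

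The members and lists were chosen with earlier results of these data known. Named genes are the 9 members, list genes past 2-fold, the 3 largest differences in each list and the 3 nearest genes to the highest and lowest member; other list genes were named after their values were seen. Other scalings, probe rules, symbol rules and fold thresholds were tried. The calling of differences was tested on simulated data. Python 3.11.15, NumPy 2.4.6 and pandas 2.3.3 were used.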

Additional observations from a re-analysis of the deposited data

How the results depend on the processing

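The scaling between the arrays mattered most. With the machinery median (0.50) subtracted, CPOX (0.79) and FECH (0.65) fell under 2-fold, ALAS1 (-0.13) and PPOX (-0.060) turned negative, 0 members were called higher and the median of the enzymes was 0.29. With both arrays scaled to one standard deviation, CPOX (0.86), FECH (0.88) and the count (0) did likewise. With the silent median (-0.32) subtracted, ALAS2 (1.17), UROS (1.06) and UROD (1.16) passed 2-fold, ALAD (0.29) and HMOX1 (0.12) turned positive and 5 members were called higher, against 15% of all genes. With the median of all genes (-0.047) subtracted, ALAD (0.012) and the globin list (0.0067) turned positive. At 1.5-fold 5 members were called higher, against 18.1% of all genes, and at 3-fold 0, against 0.365%.

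List medians with the machinery median subtracted were 0.30 for precursor supply, 0.00054 for haem breakdown, -0.0078 for haem use, -0.24 for iron-sulphur assembly, -0.13 for regulators, 0.052 for NRF2 targets, -0.54 for globins and 0.44 for iron uptake and handling. With the silent median subtracted they were 0.82 for haem breakdown, 0.82 for haem use, 0.59 for iron-sulphur assembly, 0.70 for regulators, 0.88 for NRF2 targets and 0.28 for globins.

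The rules for probes and symbols moved no member or count, since each member has 1 probe. 1 other composition of the enzyme list was not run. No paired analysis was possible because each group has 1 array, and leaving out an array leaves no comparison. Signal over background is unknown, so a dim probe cannot be told from a bright one.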
